A study of Mus musculus with 14 samples.

Results

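Expression of 7 genes of steroid and thyroid hormone signalling was followed in mouse liver: the receptor genes Esr1, Nr3c1, Nr3c2, Thra and Thrb, the deiodinase gene Dio1 and Pgrmc1, which encodes a heme-binding membrane protein. They were chosen by gene symbol, through the RefSeq accession of each array probe. The 7 genes were matched to 14 of the 39429 probes on the array, and 19751 genes could be named in this way. Liver RNA came from CD-1 mice, an outbred strain, in 6 groups, namely males and females at 3 wk (M3, F3), 4 wk (M4, F4) and 8 wk (M8, F8) of age, which span puberty. Each group had 2 RNA pools of 5 mice (3 wk) or 6 mice (4 and 8 wk), so that a value describes a pool and not a mouse. Pools competed in pairs on 14 Agilent arrays with a red and a green fluorescent label, and each comparison had 2 arrays with exchanged dyes. There were 7 comparisons: 3 between the sexes at 1 age (M3/F3, M4/F4, M8/F8), 2 between the ages in males (M8/M3, M8/M4) and 2 in females (F8/F3, F8/F4).

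Nuclear hormone receptors are transcription factors whose activity is set by a small lipophilic ligand. Steroid receptors wait for their ligand in complexes with heat shock proteins, whereas thyroid hormone receptors sit on DNA with a retinoid X receptor and repress or activate their targets. Liver is a classical target tissue of all of these hormones. Glucocorticoids induce gluconeogenesis and amino acid breakdown there, thyroid hormone acts on lipid and cholesterol metabolism, and estrogen acts on hepatocytes through estrogen receptor alpha, the product of Esr1. Nr3c1 and Nr3c2 encode the glucocorticoid and the mineralocorticoid receptor, which both bind glucocorticoids. Thra and Thrb encode the thyroid hormone receptors alpha and beta, and beta is the main form in hepatocytes. Dio1 encodes a selenoenzyme that converts thyroxine to the active hormone, and Pgrmc1 encodes a partner of cytochromes P450 that was named after progesterone binding.

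Ratios were given as log2 of male over female or of 8 wk over the younger age. To be called, a gene needed an adjusted p below 0.05 (limma with Benjamini-Hochberg adjustment across every probe and comparison), a ratio past 1.5 or 0.667, and signal well above background in 1 group or both on each array. Probes that met the signal criterion are termed bright, and all 7 genes did so in every comparison. The spread is that between 2 pools, and comparisons of the same group share its pools. Where a gene had several probes, the probe with the highest mean signal was used unless stated. In a tissue sample, fewer cells of a type and less RNA per cell cannot be told apart.

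No spot was saturated on any array, and 55.2% to 77.2% of spots in a channel were well above background. All 6 hepatocyte markers (Alb, Apoa1, Cps1, Tat, Ttr and Hnf4a) were well above background in every channel of the 6 groups, with a summed level of 483000 to 627000 in the 12 pools. On the 6 arrays that compared the sexes, Xist had log2 ratios of -6.67 to -5.10 and the Y-linked Ddx3y, Uty and Eif2s3y had ratios of 5.80 to 8.02, so that the labelled sexes were borne out.

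Of the 7 genes, 0 were called in M3/F3, where 0.517% of all bright lead probes (1 for each gene) passed, and 0 in M4/F4, where 1.58% passed. Esr1 alone was called in M8/F8, beside 6.4% of all bright lead probes. Between the ages, 3 of the 7 genes were called in M8/M3 (Esr1 down, Nr3c2 and Pgrmc1 up), beside 17.8%, and 2 in M8/M4 (Esr1 down, Nr3c2 up), beside 10.8%. Female liver had 1 called gene in F8/F3 (Pgrmc1 up), beside 11.7%, and 0 in F8/F4, beside 6%. At an unadjusted limma p below 0.05 the counts for M3/F3, M4/F4 and F8/F4 were 0, 1 and 3, and an error-weighted test made after the study's methods called 0 in each of these 3 comparisons. With the threshold on the ratio left out, 3 genes passed in each of M8/M3, M8/M4 and F8/F3, and 2 passed in F8/F4. The shares above hold for calls with the ratio threshold. No share of all bright lead probes was computed for these other criteria, so that these counts lack a background. From 3 to 8 wk the 7 genes had a median log2 ratio of 0.37 for males and 0.36 for females, where the medians over all bright lead probes were 0.01 and 0.02.

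**Figure D1:**
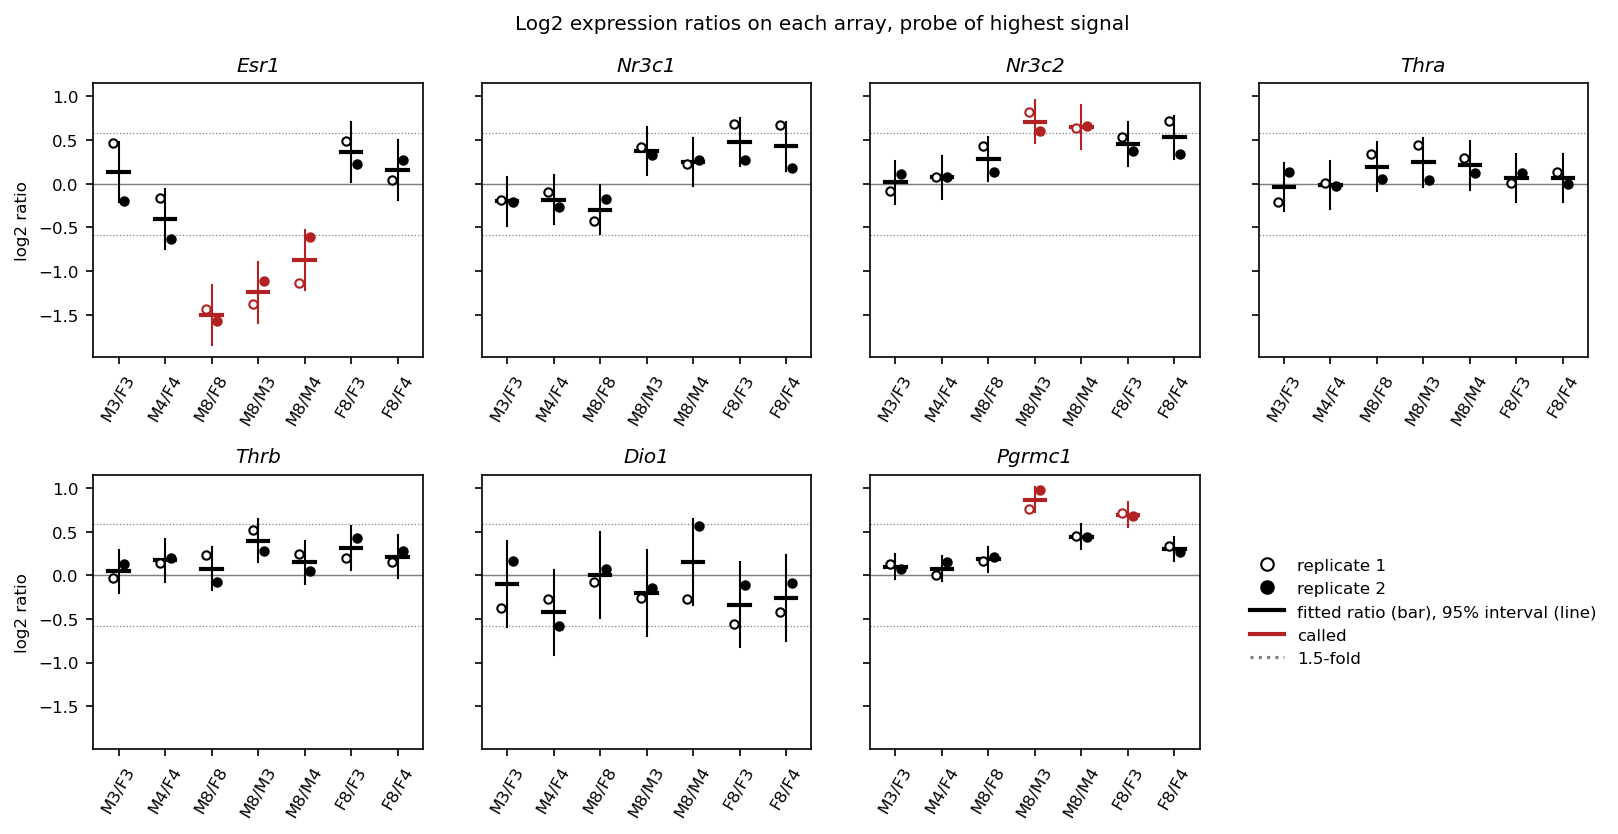
Log2 ratio of each gene (vertical axis) in the 7 comparisons (horizontal axis), with an open and a filled circle for the arrays of replicate 1 and 2, a bar for the fitted ratio, a line for its 95% interval and dotted lines at 1.5-fold. Called ratios are red, and those of Esr1 lie below 0 in M8/F8, M8/M3 and M8/M4, whereas those of Nr3c2 and Pgrmc1 lie above 0 in the age comparisons.

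The promoters of the 3 genes that were called are shown, since Nr3c2 and Pgrmc1 were both called higher in M8/M3, where Esr1 was called lower. Each sequence is the 250 bases before an annotated start, from RefSeq on GRCm38.p6, and Esr1 has an entry for each of 2 starts. Motif matches are in capitals. The motifs searched on both strands were AGGTCA, the core bound by estrogen and thyroid hormone receptors, and AGAACA, the core bound by glucocorticoid and mineralocorticoid receptors.

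Esr1, first start, chr10:4611739-4611988, forward strand: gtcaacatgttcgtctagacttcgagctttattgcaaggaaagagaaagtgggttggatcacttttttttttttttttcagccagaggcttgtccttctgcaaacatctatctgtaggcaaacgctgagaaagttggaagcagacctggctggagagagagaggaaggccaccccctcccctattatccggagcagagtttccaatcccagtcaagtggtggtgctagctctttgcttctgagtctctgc
Esr1, second start, chr10:4709908-4710157, forward strand: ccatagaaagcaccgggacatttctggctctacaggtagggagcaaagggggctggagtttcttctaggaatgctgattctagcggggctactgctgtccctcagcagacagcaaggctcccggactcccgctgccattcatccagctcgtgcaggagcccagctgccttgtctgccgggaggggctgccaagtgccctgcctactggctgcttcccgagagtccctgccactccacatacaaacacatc
Nr3c2, chr8:76902080-76902329, forward strand: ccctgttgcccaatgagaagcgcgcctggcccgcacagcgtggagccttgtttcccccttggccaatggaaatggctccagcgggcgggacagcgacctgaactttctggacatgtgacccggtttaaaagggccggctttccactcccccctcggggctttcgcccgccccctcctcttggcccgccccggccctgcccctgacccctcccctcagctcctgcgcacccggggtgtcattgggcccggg
Pgrmc1, chrX:36597943-36598192, forward strand: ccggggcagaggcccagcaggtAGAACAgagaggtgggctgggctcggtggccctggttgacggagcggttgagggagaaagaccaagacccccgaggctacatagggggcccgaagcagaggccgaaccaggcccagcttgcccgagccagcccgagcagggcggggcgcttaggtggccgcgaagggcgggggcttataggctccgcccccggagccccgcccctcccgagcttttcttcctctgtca

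Within these windows AGAACA was found in that of Pgrmc1, 228 to 223 bases before the start, and no match was found in those of Esr1 and Nr3c2. RefSeq entries were given for 7 promoters of 5 of the genes, Thra and Nr3c1 having none. AGGTCA occurred in 1 of the 7, a promoter of Thrb, and AGAACA in 2 of the 7, those of Pgrmc1 and of a start of Thrb. Over all 32851 promoters of this length, AGGTCA occurred in 14% and AGAACA in 16.1%. The arrays measured RNA and not binding, so that a match describes the letters of the window only.

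Esr1, the estrogen receptor alpha gene, was lower in 8 wk male liver than in every group it was compared with. On the M8/F8 arrays the log2 ratios were -1.43 and -1.57, a 2.83-fold lower level in males (fitted log2 ratio -1.50 ± 0.15 SE, 95% interval -1.85 to -1.16, adjusted p = 0.00116). The M8/M3 arrays gave -1.38 and -1.11 (2.37-fold lower, adjusted p = 0.00231). On both M8/M4 arrays the ratio was also below 0, at -1.14 and -0.61 (1.83-fold lower, adjusted p = 0.00899). All 6 arrays that carried M8 RNA therefore lay below 0, and the M8/F8 arrays lay lowest of them.

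At 3 and 4 wk Esr1 was not called between the sexes. The M3/F3 arrays disagreed in sign, at 0.46 and -0.20 (adjusted p = 0.712), and the M4/F4 arrays gave -0.17 and -0.64 (fitted -0.40, 95% interval -0.75 to -0.06, adjusted p = 0.129). A second probe gave -0.31 and -0.19 in M4/F4, with an adjusted p of 0.0348 and a ratio below 1.5-fold. Female liver showed log2 ratios of 0.49 and 0.23 in F8/F3 (adjusted p = 0.168) and of 0.05 and 0.27 in F8/F4 (adjusted p = 0.615), neither of which was called. Without replicate 2 of F8/F3 the comparison was called, at a fitted 0.69 (adjusted p = 0.0346), although the remaining array itself read 0.49, below 1.5-fold. With an array left out, a fitted value rests on a dye term from the other arrays and can differ from the array that remains.

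The difference between the sexes in the change with age was tested itself. For Esr1, M8/M3 minus F8/F3 was -1.61 (95% interval -2.09 to -1.12, adjusted p = 0.011) and was called, where 3.35% of all bright lead probes passed this interaction. The array-wise differences were -1.88 and -1.34. M8/M4 minus F8/F4 was -1.04 (95% interval -1.52 to -0.55), with array-wise differences of -1.19 and -0.88, but its adjusted p of 0.0738 did not pass the threshold, which 1.31% of all bright lead probes did. The error-weighted test called it, as the 1 gene of the 7, but the p of that test leaves out the spread between arrays and pools. Of the other 6 genes, 0 were called in either interaction, and 0 had an unadjusted p below 0.05. The same quantities computed through the sex comparisons, on other arrays of the same pools, were -1.63 (M8/F8 minus M3/F3) and -1.10 (M8/F8 minus M4/F4). All arrays of the sex comparisons shared 2 slides and a scan, whereas M8/M3 and F8/F3 lay on different slides and in different scans, so that for the first interaction scan and sex cannot be told apart on the age arrays alone. M8/M4 and F8/F4 shared their slides. With the slide as a block Esr1 kept its calls (adjusted p = 0.00816 in M8/F8, 0.0126 in M8/M3, 0.0301 in M8/M4 and 0.0362 for the first interaction). Each slide held 1 array of a comparison, so that the array values above are the values within slides. The block was set within comparisons and left every fitted ratio as it was. It therefore cannot separate scan from sex in the first interaction. The M8/M4 call was lost without its replicate 1 (-0.73, adjusted p = 0.0964), and the first interaction was lost without replicate 1 or replicate 2 of M8/M3 (adjusted p = 0.0658 and 0.0616).

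**Figure D2:**
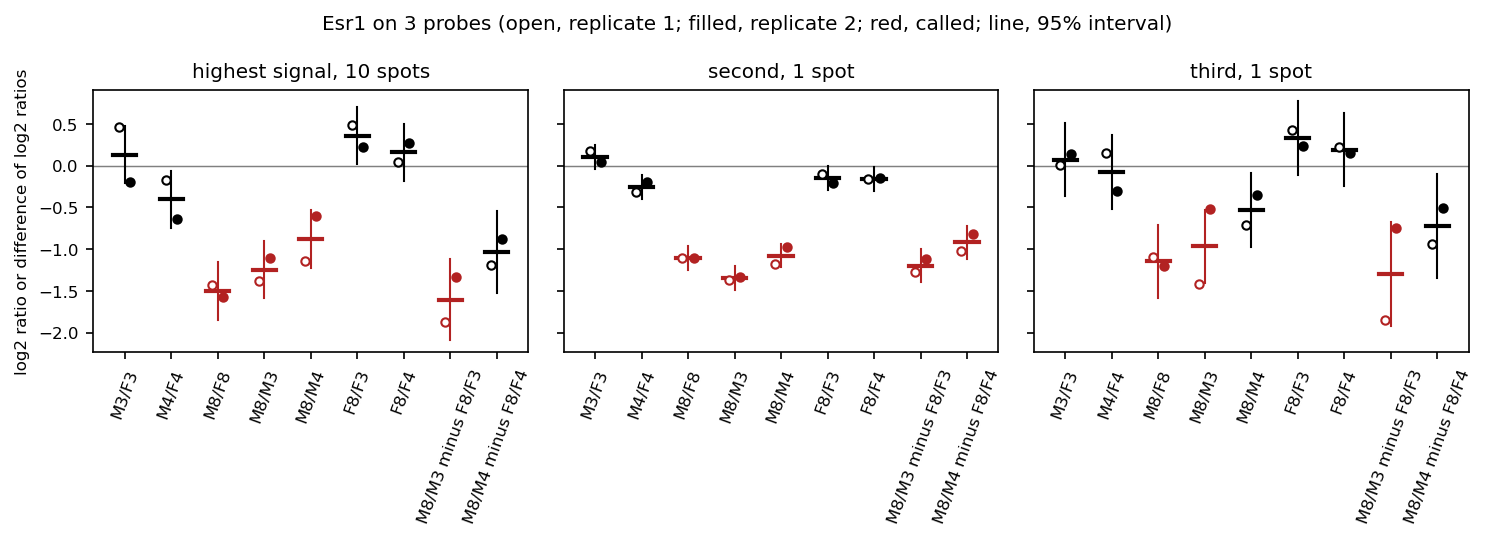
Log2 ratios and differences of log2 ratios (vertical axis) of Esr1 on its 3 probes, in the 7 comparisons and 2 interactions (horizontal axis), with circles for the arrays, bars for fitted values and lines for 95% intervals. M8/F8, M8/M3 and the interaction M8/M3 minus F8/F3 are red (called) on all 3 probes, whereas F8/F3 and F8/F4 lie below 0 on the second probe and above 0 on the others.

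Esr1 had 3 probes, and the low level in 8 wk males was seen with each. The probe of highest signal was spotted 10 times per array, with an SD of log2 ratios among those spots of 0.02 to 0.10 (median 0.03), less than the difference between the arrays in each comparison. The second probe gave -1.10 and -1.11 against 8 wk females, -1.37 and -1.33 against M3, and -1.18 and -0.97 against M4, and all 3 were called (adjusted p = 0.000178, 0.000114 and 0.000191). With this probe both interactions were called, at -1.20 (adjusted p = 0.0018) and -0.92 (adjusted p = 0.00881). The last probe was dim, with 4 of its 6 channels of M8 well above background. It gave -1.09 and -1.20 in M8/F8 (adjusted p = 0.00804) and -1.41 and -0.51 in M8/M3 (adjusted p = 0.0156), and in M8/M4 it gave -0.71 and -0.35 without a call. In females the second probe lay below 0 on every array, at -0.09 and -0.21 in F8/F3 and at -0.16 and -0.15 in F8/F4, opposite in sign to the other probes, so that the small female change had no settled direction.

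As levels, obtained from both channels after normalization between arrays and given as log2 of an arbitrary unit, Esr1 was 10.37 and 10.51 in the M3 pools, 10.09 and 9.99 in M4, and 9.04 and 9.29 in M8. The female pools were at 9.91 and 10.61 in F3, 10.37 and 10.58 in F4, and 10.46 and 10.78 in F8. The order of the group means was F8, F4, M3, F3, M4 and M8. The pools of neighbouring groups overlapped in this order, except that both M8 pools lay below both M4 pools. The F3 pools differed from each other by more than the M3, M4, F4, M8 or F8 pools did (SD 0.50), and pool 1 of F3 lay below the pools of the other younger groups.

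Cell type markers moved beside Esr1 in part. Of 5 measured Kupffer cell markers (macrophages of the liver), 3 were called lower in M8/F8 (Clec4f, Adgre1 and Marco), and their summed level was 19300 and 15400 in the M8 pools, 25600 and 25100 in F8, and 24300 to 32900 in the younger pools. All 5 were well above background in every group. Of the 6 hepatocyte markers limma called 0 in M8/F8 and 4 had an unadjusted p below 0.05. Alb (fitted -0.57, adjusted p = 0.013), Cps1 (-0.52, adjusted p = 0.00351) and Tat (-0.41, adjusted p = 0.000886) were lower in males by less than 1.5-fold. Apoa1 was higher (0.40, adjusted p = 0.056). The summed hepatocyte level was 483000 and 506000 in M8, 534000 and 548000 in F8, and 526000 to 627000 in the younger pools. Of the 5 sinusoidal endothelial markers 0 were called in M8/F8 and 1 had an unadjusted p below 0.05, with summed levels of 30500 to 32100 in M8 and 33500 to 35400 in F8. Of the 5 erythroid markers Alas2 was called higher in M8/F8, and the summed level of the list was 11400 and 9960 in M8, 3390 and 2200 in F8, and 2590 to 5940 in the younger pools. Cd74 of the 5 lymphocyte markers (-0.64 and -0.54) and Top2a of the 6 mitosis genes (-0.40 and -1.83) were also called lower in M8/F8. Against younger males, where Esr1 was lower as well, Adgre1 and Marco were again called lower, with fitted values in M8/M3 and M8/M4 of -0.86 and -0.92 for Adgre1 and of -2.20 and -1.56 for Marco. Called lower in both were also Alb of the hepatocyte markers (-1.10 and -0.33 in M8/M3, -1.14 and -0.21 in M8/M4), Lyve1 of the sinusoidal endothelial markers (fitted -1.20 and -0.85) and Krt19 of the 5 bile duct markers (fitted -0.66 and -0.59). Krt7 of the bile duct list was lower in M8/M3 alone of these 2 (-0.91), and the leukocyte gene Ptprc of the lymphocyte list in M8/M4 alone (-0.66). In females, where Esr1 was not called, Marco was also called lower in F8/F3 (-1.58) and F8/F4 (-1.28), and Lyve1 in F8/F3 (-0.94). Adgre1, Alb, Krt19, Krt7 and Ptprc were not called in either female comparison. Whether these shifts took part in the Esr1 result was not tested.

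The genes with the most similar levels to Esr1 over the 12 pools, among 15307 others, were Dlg4 (Pearson's r = 0.957), Fgl1 (r = 0.939) and Cga (r = 0.936). Fgl1 encodes a fibrinogen-like protein secreted by hepatocytes, and its log2 ratio was -1.99 in M8/F8 and -1.29 in M8/M3, both called. Cga encodes the common alpha subunit of pituitary glycoprotein hormones, and it had -4.14 in M8/F8 and -3.66 in M8/M3, both called. Dlg4 had -0.67 in M8/F8 and -1.80 in M8/M3, without a call, and was called in M8/M4 (-1.18). These correlations describe 12 pools from the same arrays and were drawn from many genes.

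**Figure D3:**
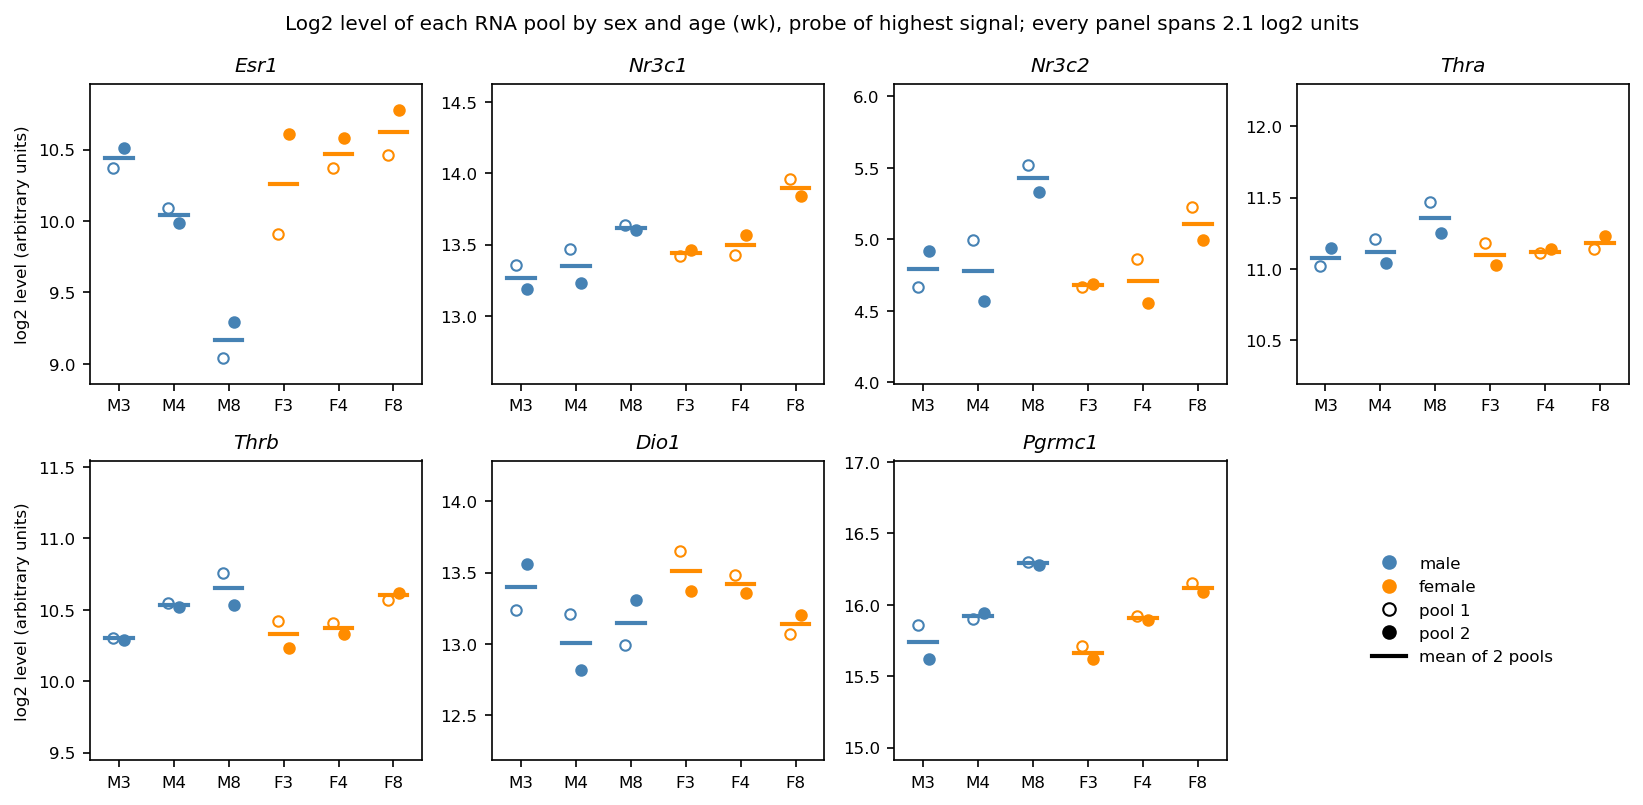
Log2 level in arbitrary units (vertical axis, 2.1 log2 units in each panel) of the 7 genes in the 6 groups (horizontal axis), with an open circle for pool 1, a filled circle for pool 2 and a bar for their mean. The M8 pools of Esr1 (9.04 and 9.29) lie below all other pools of this gene, and both 8 wk groups of Pgrmc1 lie above its 3 and 4 wk groups.

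Nr3c1, the glucocorticoid receptor gene, was not called in any of the 7 comparisons. With the probe of highest signal its log2 ratios in the sex comparisons were all below 0, at -0.19 and -0.21 in M3/F3, -0.10 and -0.27 in M4/F4, and -0.42 and -0.17 in M8/F8 (adjusted p = 0.353, 0.412 and 0.161). In the age comparisons all 8 arrays lay above 0. F8/F3 gave 0.69 and 0.27, and the fitted 0.48 had an adjusted p of 0.0394 but was below 1.5-fold. F8/F4 gave 0.67 and 0.18 (adjusted p = 0.0582), M8/M3 gave 0.42 and 0.32 (adjusted p = 0.0885), and M8/M4 gave 0.23 and 0.27 (adjusted p = 0.244). The interval of F8/F3 reached from 0.20 to 0.76, and thus included changes of more than 1.5-fold. A second probe gave smaller ratios in the age comparisons, 0.15 to 0.29, all above 0 and none called. In the sex comparisons this probe had no common sign, with M4/F4 at 0.07 and -0.07 and M8/F8 at -0.29 and 0.00. By level, F8 was highest (13.96 and 13.84), M8 followed (13.64 and 13.60), and the pools of these 2 groups did not overlap each other or those of F4 (13.43 and 13.57). The younger groups followed in the order F4, F3, M4 and M3, in which neighbours overlapped, whereas both M3 pools (13.36 and 13.19) lay below the F3 and F4 pools.

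Nr3c2, the mineralocorticoid receptor gene, was called higher at 8 wk than at 3 and 4 wk in males, and was not called in females. The M8/M3 arrays gave 0.82 and 0.60 (1.64-fold, adjusted p = 0.00569) and the M8/M4 arrays 0.64 and 0.66 (1.57-fold, adjusted p = 0.00795), and both were called. In females F8/F3 gave 0.54 and 0.37 and F8/F4 gave 0.72 and 0.34, with fitted values of 0.45 and 0.53 that had adjusted p of 0.0307 and 0.0174 but were below 1.5-fold. All 8 arrays of the age comparisons thus lay above 0. The male and female changes were not shown to differ (M8/M3 minus F8/F3 0.26, 95% interval -0.10 to 0.61, adjusted p = 0.432). In the sex comparisons the ratios were -0.08 and 0.11 in M3/F3, 0.07 and 0.08 in M4/F4, and 0.44 and 0.13 in M8/F8 (adjusted p = 0.135).

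The signal of Nr3c2 was low, with 27 of its 28 channels well above background, and its only probe gave levels of 5.52 and 5.33 in the M8 pools, 5.23 and 4.99 in F8, and 4.55 to 5.00 in the 8 younger pools. The M8 pools lay above all others, whereas pool 2 of F8 lay within the range of the M4 pools. After another background correction (normexp) and loess normalization, the ratios were 0.15 in M8/M3 and 0.33 in M8/M4, and neither was called (adjusted p = 0.146, and 0.00623 with a ratio below 1.5-fold). With the shared pools in the covariance the calls were lost as well (adjusted p = 0.119 and 0.153). M8/M3 lost its call without its replicate 1 (0.63, adjusted p = 0.0639), and M8/M4 lost its call without its replicate 2 (0.59, adjusted p = 0.0819). Without replicate 2 of F8/F4 that comparison was called, at 0.69. The 3 genes of most similar level were Fkbp8 (r = 0.963), Ubr4 (r = 0.961) and Ist1 (r = 0.961), and their log2 ratios in M8/M3 were 0.37, 0.19 and 0.34, none called.

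Thra, the thyroid hormone receptor alpha gene, had the narrowest range of group mean levels of the 7, from 11.08 in M3 to 11.36 in M8, a span of 0.28. The male age comparisons gave log2 ratios of 0.45 and 0.04 (M8/M3) and of 0.29 and 0.13 (M8/M4). Those in females gave 0.00 and 0.12 (F8/F3) and 0.13 and 0.00 (F8/F4), and the adjusted p was 0.247 to 0.921 over these 4 comparisons. The sex comparisons gave -0.21 and 0.13 in M3/F3, 0.00 and -0.03 in M4/F4, and 0.34 and 0.06 in M8/F8 (adjusted p = 0.368). The 95% intervals of the 7 comparisons reached from -0.32 (M3/F3) to 0.52 (M8/M3), so that a 1.5-fold change lay outside them. A second probe of low signal was not called either, and its F8/F4 ratio of -0.11 was opposite in sign.

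Thrb, the thyroid hormone receptor beta gene, lay above 0 on all 8 arrays of the age comparisons without a call. The M8/M3 arrays gave 0.52 and 0.27 (fitted 0.40, 95% interval 0.15 to 0.65, adjusted p = 0.0508), and the F8/F3 arrays gave 0.20 and 0.43 (fitted 0.31, adjusted p = 0.106). M8/M4 and F8/F4 gave 0.24 and 0.05, and 0.15 and 0.28 (adjusted p = 0.482 and 0.263). Between the sexes the ratios were -0.04 and 0.12 at 3 wk, 0.14 and 0.20 at 4 wk, and 0.23 and -0.08 at 8 wk. As levels, the M3 pools were at 10.30 and 10.29, the M4 pools at 10.55 and 10.52, and the M8 pools at 10.76 and 10.53, so that M8 overlapped M4 but not M3. A second probe gave 0.75 and 0.52 in M8/M3 and 0.46 and 0.49 in F8/F3, with more spread between arrays elsewhere (-0.06 and 0.66 in M8/M4) and no call.

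Dio1, the deiodinase gene, was not called in any comparison and had the largest SE of the 7 (0.21). The M8/M4 arrays gave -0.27 and 0.56 (fitted 0.15, 95% interval -0.34 to 0.64, adjusted p = 0.821), and its other probes gave -0.23 and 0.67, and -0.39 and 0.47. By pool, M4 was at 13.21 and 12.82 and M8 at 12.99 and 13.31, so that pool 1 was higher in M4 and pool 2 in M8. The F8/F3 arrays gave -0.56 and -0.11, the F8/F4 arrays -0.42 and -0.09, and the M8/M3 arrays -0.27 and -0.15, all below 0 and none called (adjusted p = 0.385, 0.542 and 0.668). The sign was not shared by every probe, since in replicate 2 of F8/F3 the other probes read 0.07 and 0.06, and one of them read 0.10 in replicate 2 of M8/M3. In M4/F4 both arrays lay below 0 (-0.27 and -0.59, adjusted p = 0.253), and in M8/F8 they were -0.07 and 0.07. The interval of M8/F8 was -0.49 to 0.49, which leaves out a 1.5-fold difference between the adult sexes. The pools of neighbouring groups overlapped throughout the order F3, F4, M3, M8, F8 and M4.

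Pgrmc1 rose with age in both sexes with little spread. The M8/M3 arrays gave 0.75 and 0.98 (1.82-fold, 95% interval 0.73 to 1.01 on the log2 scale, adjusted p = 0.000358) and the F8/F3 arrays gave 0.71 and 0.68 (1.62-fold, 95% interval 0.55 to 0.83, adjusted p = 0.000759), and both were called under each of the 28 other settings that applied. From 4 wk the changes were smaller, at 0.44 and 0.44 in M8/M4 (adjusted p = 0.00402) and 0.34 and 0.26 in F8/F4 (adjusted p = 0.0176), and below 1.5-fold. The sex comparisons gave 0.13 and 0.07 at 3 wk, 0.00 and 0.15 at 4 wk, and 0.16 and 0.20 at 8 wk (adjusted p = 0.38, 0.543 and 0.101). The male and female changes from 3 wk were not shown to differ (0.17, 95% interval -0.03 to 0.37, adjusted p = 0.348).

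By level, the order of Pgrmc1 was M8 (16.30 and 16.28), F8 (16.15 and 16.09), M4 (15.90 and 15.94), F4 (15.92 and 15.89), M3 (15.86 and 15.62) and F3 (15.71 and 15.62). The pools of M8 and F8 did not overlap each other or the younger groups. The 3 genes of most similar level were Mrnip (r = 0.981), Herc3 (r = 0.98) and Fgfr2 (r = 0.979). Mrnip was called in M8/M3 (1.40) and F8/F3 (0.95), Herc3 likewise (0.78 and 0.65), and Fgfr2, a fibroblast growth factor receptor gene, had 0.57 and 0.40 without a call.

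Beside these age comparisons other marker lists moved. All 6 mitosis genes measured were called lower at 8 wk in each age comparison, with summed levels of 8520 to 18400 in the 8 younger pools and 1060 to 1290 in the 8 wk pools. Of 11 circadian clock genes, 6 or 7 were called in each age comparison, and Nr1d1, Nr1d2, Dbp and Tef were up in all of them. Nr1d1, a nuclear receptor gene of the clock, had log2 ratios of 2.87 and 3.04 in M8/M3 and of 2.95 and 3.14 in F8/F3. It overlaps the end of Thra on the opposite strand. Each of the 5 neutrophil markers was called lower in M8/M3 and F8/F3, and their summed level was 4820 to 10300 in the 3 wk pools and 1090 to 1540 in the 8 wk pools. Of the 6 stellate and mesenchymal markers, 2 or 3 were called lower in each age comparison. Among the erythroid markers, Epb42 and Rhag were well above background in none of the 8 wk channels, whereas Alas2 was higher in M8/M3 and M8/M4. The part of these shifts in the changes of Nr3c2 and Pgrmc1 was not tested.

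A further 68 genes of the same hormone pathways were examined, of which 67 were measured. Between the sexes 4 were called at 3 wk (6.67% of those tested), 3 at 4 wk (5.08%) and 11 at 8 wk (18%). In males 17 were called from 3 wk (27%) and 8 from 4 wk (12.9%), and in females 5 from 3 wk (7.94%) and 8 from 4 wk (12.9%), beside the shares of all bright lead probes given above. Of the 68 genes, 27 were called in at least 1 comparison. Where a called gene had a second probe, that probe was called the same way in 5 of 15 results and had the opposite sign in 1. These results include those of Med1 in both interactions.

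**Figure D4:**
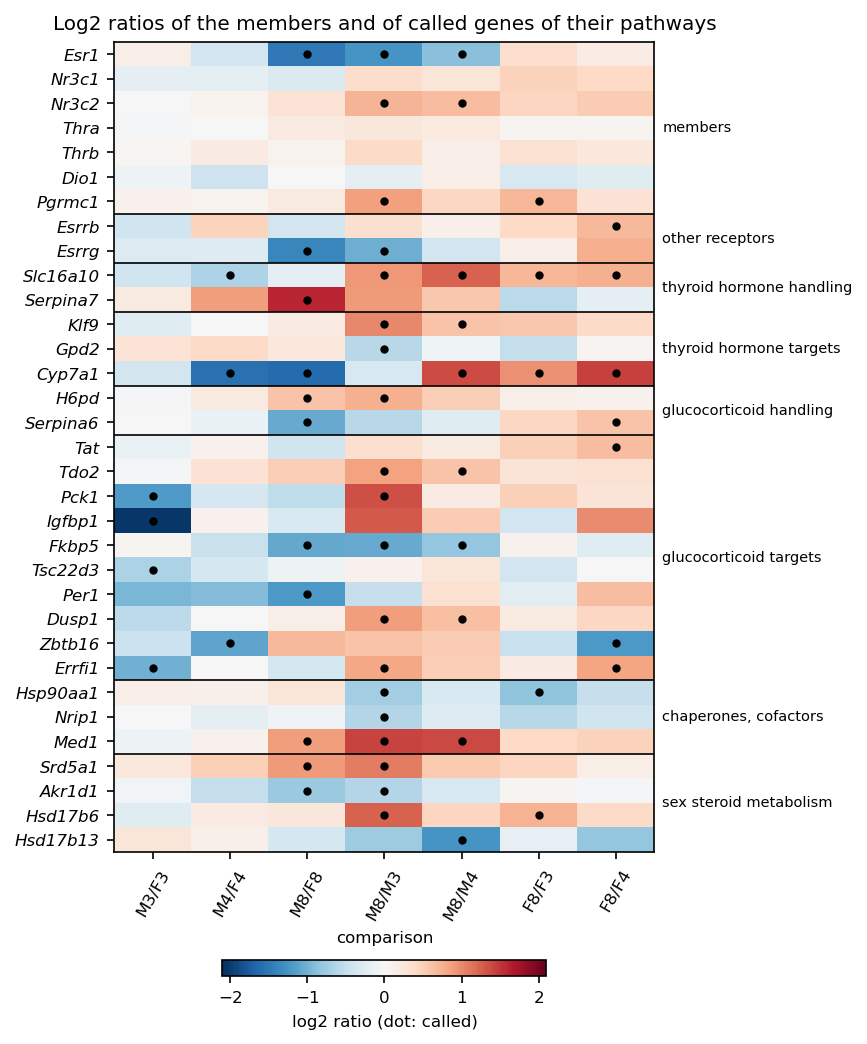
Log2 ratios (colour) in the 7 comparisons (horizontal axis) of the 7 genes and of 26 of the 27 other hormone pathway genes called in at least 1 of them (vertical axis), grouped by list, with a dot where a ratio was called. Cyp7a1, a thyroid hormone target, is below 0 in M4/F4 and M8/F8 and above 0 in M8/M4, F8/F3 and F8/F4, and most dots of the sex comparisons fall in M8/F8.

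Esrrg, an orphan receptor gene related to the estrogen receptors, gave -1.75 and -0.98 in M8/F8 (adjusted p = 0.0136) and -1.14 and -0.90 in M8/M3 (adjusted p = 0.0398), in the same direction as Esr1. Esrrb was called in F8/F4, at 0.57 and 0.79. Esr2, Pgr, Gper1, Pgrmc2 and Esrra were not called in any comparison.

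Of 12 genes that carry or handle thyroid hormone, Slc16a10 and Serpina7 were the ones called. Slc16a10, which encodes a transporter of aromatic amino acids and thyroid hormone, was higher at 8 wk in all 4 age comparisons, from 0.70 in F8/F3 to 1.23 in M8/M4, and lower in males in M4/F4 (-0.64 and -0.66). Its second probe gave 0.22 to 0.61 in the age comparisons and -0.12 in M4/F4, and of these 5 results it was called in M8/M3 only. Serpina7, the gene of thyroxine-binding globulin, gave 1.24 and 1.97 in M8/F8 (3.04-fold higher in males, adjusted p = 0.032). Of 7 thyroid hormone targets, Klf9, which encodes a zinc finger factor induced by thyroid hormone and glucocorticoids, rose in M8/M3 (1.03 and 0.97, adjusted p = 0.000513) and M8/M4 (0.52 and 0.66, adjusted p = 0.0035). Cyp7a1, the rate-limiting enzyme of bile acid synthesis, was lower in males in M4/F4 (-1.72 and -1.40) and M8/F8 (-1.81 and -1.41), and rose from 4 wk in both sexes (1.38 in M8/M4 and 1.44 in F8/F4) and in F8/F3 (0.95). Gpd2, a mitochondrial glycerol phosphate dehydrogenase gene, fell in M8/M3 (-0.71 and -0.46, adjusted p = 0.0496).

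Of 12 glucocorticoid targets, those called between the sexes were lower in males, 4 of them at 3 wk, 1 at 4 wk and 2 at 8 wk. In M3/F3 the list's median log2 ratio was -0.60 and that over all bright lead probes was close to 0. The neutrophil markers were also lower there, 5 of 5 called, with a summed level of 4830 and 4820 in M3 and of 8630 and 10300 in F3, and their part in this was not tested. Igfbp1, which encodes a hepatic binding protein of insulin-like growth factors, gave -1.59 and -2.50 (adjusted p = 0.0481), Pck1, the gluconeogenic enzyme phosphoenolpyruvate carboxykinase, gave -1.21 and -1.18 (adjusted p = 0.0123), and Errfi1, an inhibitor of epidermal growth factor receptor signalling, gave -1.23 and -0.78 (adjusted p = 0.00432). In M4/F4 Zbtb16, which encodes a zinc finger repressor, was called lower in males (fitted -1.11, adjusted p = 0.0399), and it also fell in F8/F4 (-1.54 and -0.88). In M8/F8, Fkbp5, the gene of a receptor-bound immunophilin, gave -1.21 and -0.94 (adjusted p = 0.00304) and Per1, a clock gene, gave -1.71 and -0.69 (adjusted p = 0.0291). With age, 4 of the 12 rose and 1 fell in M8/M3, led by Pck1 (1.13 and 1.58), Fkbp5 (-1.07 and -1.04) and Dusp1 (0.85 and 0.89). In M8/M4 Fkbp5 fell (-0.82), and Dusp1 (0.63) and Tdo2 (0.60) rose. In F8/F3 limma called 0 of the 12, and 5 had an unadjusted p below 0.05. In F8/F4 Errfi1 (0.82) and Tat (0.65), the tyrosine aminotransferase gene, rose. The change of Fkbp5 from 3 wk differed between the sexes (interaction -1.14, adjusted p = 0.025), and both F8/F3 arrays read 0.08.

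Of the 3 genes of glucocorticoid handling, Serpina6, the gene of corticosteroid-binding globulin, was lower in males in M8/F8 (-1.36 and -0.77, 2.09-fold, adjusted p = 0.00511) and higher at 8 wk in F8/F4 (0.92 and 0.29, adjusted p = 0.0427). H6pd, which supplies NADPH to the enzyme that regenerates glucocorticoids, was higher in M8/F8 (0.48 and 0.73, adjusted p = 0.0494) and M8/M3 (0.56 and 0.93, adjusted p = 0.0238). Among 13 chaperones and cofactors of the receptors, Hsp90aa1, a heat shock protein gene, fell in M8/M3 (-0.85 and -0.61) and F8/F3 (fitted -0.84), and Nrip1, a corepressor gene, fell in M8/M3 (-0.63 and -0.60). Med1, a Mediator subunit that binds ligand-bound receptors, was higher in M8/F8 (1.20 and 0.54), M8/M3 (1.39 and 1.43) and M8/M4 (1.26 and 1.52), but its second probe gave 0.12 to 0.13 in these comparisons without a call, so that its probes disagreed.

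Sex steroid metabolism had 13 genes, of which 12 were measured. Srd5a1, the steroid reductase that forms dihydrotestosterone, was higher in M8/F8 (0.81 and 0.98, 1.86-fold, adjusted p = 0.000263) and in M8/M3 (1.24 and 0.92, adjusted p = 0.000157), and its change from 3 wk was larger in males (interaction 0.63, adjusted p = 0.00998). Akr1d1, a reductase of bile acid and steroid hormone metabolism, was lower in M8/F8 (-0.92 and -0.63, adjusted p = 9.14e-05) and M8/M3 (-0.53 and -0.70, adjusted p = 0.000158), with an interaction of -0.67 (adjusted p = 0.00177). Hsd17b6, a hydroxysteroid dehydrogenase gene, rose in M8/M3 (0.97 and 1.49) and F8/F3 (0.49 and 0.97). Hsd17b13, a lipid droplet protein gene, gave -0.83 and -1.64 in M8/M4 (adjusted p = 0.031), but its second probe had the opposite sign (1.07).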

How the data were processed

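Scanner output of 14 arrays of 2 colours was used. The authors background-subtracted and dye-normalized (linear and LOWESS) each array with Agilent Feature Extraction 10.7.1.1, and deposited the log10 ratio of red over green and the processed intensity of each spot. The deposited series table equalled these log10 ratios (largest difference 0). The direction of each ratio was taken from the dyes in the sample labels, since the methods state the opposite dyes for the first replicate. Deposited ratios were put on the log2 scale, turned to male over female or older over younger, and averaged over the spots of a probe. Non-uniform outlier spots were left out. The array design used build mm9. Accessions named 26055 of the 39429 probes.

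Ratios of all arrays were fitted in R 4.3.3 with limma 3.58.1, with 7 comparison coefficients, 1 dye term, and 2 interactions whose p-values were adjusted within each. Pool levels, for which arrays of the same replicate number were taken to carry the same pool of a group, were means of log2 intensity after quantile normalization of the average intensity between arrays. Promoters and figures were handled in Python 3.11.15. The 7 genes, the lists and the rule for named genes (all probes of the 7 genes, up to 3 called genes per list and comparison, and 3 genes of most similar level) were chosen with earlier results of these data known. Alternatives tried were the background correction, the normalization, the dye term, replicate, slide and pool terms, group means, error-weighted averages, thresholds, the filter on dim probes, the probe, and leaving out each array.

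The design text says that 2 pools per group served all 7 sets of hybridizations, and same-numbered arrays deviated together where groups were shared (r = 0.145 to 0.679 for a group on the same side and -0.53 to -0.426 on opposite sides, against -0.291 to 0.219 with none shared, over 21650 probes). The dye term was not removed for these correlations. Replicate 1 had the numerator in red in the sex comparisons and in green in the age comparisons. Dye and shared pools are therefore not fully told apart in them. Counts over a list cover all of its genes, of which 2 are not reported here by name. Sts and the macrophage marker Cd68 could not be matched to a probe here. Precision was limited by having 2 arrays for a comparison, and limma p-values measure the spread between these pools and arrays.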

Additional observations from a re-analysis of the deposited data

Results flagged for a closer look

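The change of Esr1 from 3 to 8 wk differed between the sexes by the test of the interaction: the log2 change in male liver minus that in female liver was -1.61 (adjusted p = 0.011 with limma), with both male arrays below 0 (-1.38 and -1.11) and both female arrays above 0 (0.49 and 0.23) on the probe of highest signal. On the second probe both female arrays lay below 0 (-0.09 and -0.21), so that opposite directions in the sexes were not seen with every probe, while the interaction was called with it as well (-1.20, adjusted p = 0.0018). From 4 to 8 wk the difference was -1.04 on the probe of highest signal, with both male arrays below 0 and both female arrays above 0, and did not pass the test (adjusted p = 0.0738). On the second probe both female arrays again lay below 0 (-0.16 and -0.15), and the difference was called (-0.92, adjusted p = 0.00881).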

How the results depend on the processing

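The calls of the 7 genes were computed under 29 other settings, 14 of which left out an array. A comparison with a lone array assumes that it varies like the others. The Esr1 calls in M8/F8 and M8/M3 held under all 29, and the Pgrmc1 calls in M8/M3 and F8/F3 under the 28 that apply to a gene with 1 probe, with log2 ratios of -1.59 to -1.11, -1.35 to -1.10, 0.73 to 1.00 and 0.68 to 0.77. The Esr1 call in M8/M4 held under 27 and the Esr1 interaction from 3 wk under 26 of 29, and the Nr3c2 calls in M8/M3 and M8/M4 held under 23 and 23 of 28. No called ratio reversed. The cause of the changes was not tested, save where a threshold was itself changed.

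The 7 genes had 1 call in the sex comparisons, 5 in the male and 1 in the female age comparisons, and 1 in the interactions. The 5 male calls became 3 with normexp and loess, with shared pools in the covariance and with error-weighted averages, and 2 at the methods' unadjusted p of 1e-04. The female call became 5 without the ratio threshold. The interaction count became 2 with normexp and loess, with 6 group means, with error-weighted averages, with the next probe and when only bright probes were fitted (chosen after seeing the data, because the prior had 0.856 degrees of freedom over all probes and 1.73 over bright ones), and 0 at the unadjusted p. The other hormone genes had 18, 25 and 13 calls in the sex, male and female age comparisons. They became 28 in the sex comparisons with 6 group means and with error-weighted averages, 20 in the female comparisons with error-weighted averages, 4, 10 and 3 at the unadjusted p, and 33, 46 and 31 without the ratio threshold. The share of all bright lead probes was not computed under these settings.

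With each array left out, the counts of the 7 genes were 1 to 1, 4 to 5 and 1 to 2 in the sex, male and female age comparisons and 0 to 2 in the interactions. The additional call in females arose without F8/F3 replicate 2 (Esr1) or F8/F4 replicate 2 (Nr3c2). Without replicate 1 or 2 of F8/F3 the Esr1 interaction from 4 wk was called (adjusted p = 0.0432). The counts of the other hormone genes were 12 to 17, 17 to 23 and 7 to 13, and the female count fell to 7 without F8/F3 replicate 2 and 8 without F8/F4 replicate 2.

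With the replicate number as a block, paired over shared pools, the counts of the 7 genes stayed at 1, 5, 1 and 1, and no call of theirs changed, nor did any with the slide as a block (Esr1 in M8/F8 adjusted p = 0.00241 with the replicate block). The other hormone genes then had 21, 24 and 13. Pools were estimated to carry 89.3% of the variance of a ratio, so that 2 pools per group, and for Nr3c2 its low signal, limit what can be seen.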
